A study of Mus musculus with 192 samples.

Results

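The miR-26 family was followed in the cortex, heart and lungs of mice given fentanyl. Its members here are 4 of the 1960 mature miRNAs in each table, the guide strands mmu-miR-26a-5p and mmu-miR-26b-5p and their passenger strands mmu-miR-26a-2-3p and mmu-miR-26b-3p, written below without the species prefix. They were chosen by name and host gene, and also by their levels and steadiness in these tables, so levels and spread are given below as a description with no test. All 4 members had at least 1 read in every library. The study gave adult male SKH-1 Elite mice, a hairless immunocompetent strain, a subcutaneous dose of fentanyl citrate, and small RNA was sequenced from each tissue. The groups are sham (Ringer's vehicle), HNLD (called LOEL in the labels), LD10 and LD50, which stand for 62, 110 and 135 mg/kg in that order, each sampled at 0h (40 min), 6h, 24h and 7d, with 4 mice per group and 64 mice in all. Every mouse gave all 3 tissues, and 190 of 192 libraries were used, since 2 were not analysed here, sham FP91 at 24h in cortex and LD50 FP61 at 7d in lungs. Values are normalised signal, that is, read numbers after division by a library factor, and the 3 tissue tables were scaled separately.

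A miRNA hairpin is trimmed to a short duplex, of which the guide strand is loaded into Argonaute and the passenger strand is mostly degraded. Bases 2 to 8 of the loaded strand, the seed, pair with target mRNAs. The miR-26 hairpins lie in introns of the Ctdsp genes, which encode small phosphatases of the RNA polymerase II tail that act with REST in silencing neuronal genes. miR-26a is abundant in many tissues and is known to repress the histone methyltransferase Ezh2.

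The mature sequences are shown because the seeds set the members into groups and because the 2 guides differ at few bases. Seeds are in capitals, and miR-26a-1-3p, the passenger strand of the remaining hairpin, is given for comparison. All 4 members were matched in RefSeq (GRCm38.p6).
miR-26a-5p: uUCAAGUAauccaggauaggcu
miR-26b-5p: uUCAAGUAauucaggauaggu
miR-26a-2-3p: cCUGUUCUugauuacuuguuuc
miR-26b-3p: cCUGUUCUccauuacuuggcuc
miR-26a-1-3p: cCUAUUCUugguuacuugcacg

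Counted from the 5′ end, miR-26b-5p differed from miR-26a-5p by C11U and C21U, both outside the seed, and it is 21 bases long against 22. miR-26b-3p differed from miR-26a-2-3p by U9C, G10C, U19G and U20C, also outside the seed. The seed of miR-26a-1-3p differed from that of miR-26a-2-3p by G4A. No other miRNA of the tables carries the seed of the guides. The seed of the 2 passenger members is shared by miR-6932-3p (mean value 1.17 in cortex, 0.146 in heart and 0.302 in lungs) and miR-7039-3p (0.0774, 0.00522 and 0), and both lay far below miR-26b-3p in every tissue.

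The hairpins are shown because they place each passenger strand beside its guide, with both arms in capitals, also from RefSeq.
Mir26b: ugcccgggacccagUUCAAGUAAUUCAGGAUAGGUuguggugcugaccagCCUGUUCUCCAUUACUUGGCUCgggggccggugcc
Mir26a-2: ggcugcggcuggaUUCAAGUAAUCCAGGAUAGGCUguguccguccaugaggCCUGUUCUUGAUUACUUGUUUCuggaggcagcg

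In NCBIM37 (mm9) Mir26b lies at chr1:74440884-74440968 on the plus strand, in intron 4 of Ctdsp1. Mir26a-2 lies at chr10:126432586-126432669 on the plus strand, in intron 5 of Ctdsp2, and its last base is an exon base of the other annotated transcript. Mir26a-1 lies at chr9:118940914-118941003 on the plus strand, in intron 5 of Ctdspl. The genome sequence there was identical to the RefSeq hairpin for all 3. miR-26a-5p has the same sequence in Mir26a-1 and Mir26a-2, so its reads cannot be divided between them.

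The libraries differ in ways that bear on these miRNAs. Cortices held 1775669 to 8381425 reads, hearts 215163 to 5355085 and lungs 196853 to 6540900. Mouse numbers fall into sets that were defined after values had been seen, namely a first set (FP16 to FP58, all 16 HNLD mice, 15 of LD10 and 2 of LD50), a middle set (FP59 to FP88, 10 sham and 14 LD50 mice) and a last set (FP91 to FP96 and FPB2, 6 sham mice and 1 of LD10). In lungs the last set had 500457 to 815001 reads against a median of 3863362, and the summed level of 5 epithelial miRNAs was 14865 to 19686 there, above every library of the first set (up to 9916) and of the middle set (up to 9830). Red blood cell miRNAs summed to 19959 to 33238, leukocyte miRNAs to 9720 to 20498 and multiciliated cell miRNAs to 4598 to 6406 in these 7 lungs. In cortex, FP85 (sham, 6h) and FP96 (sham, 0h) had sums of 678 and 496 for neuronal miRNAs, FP24 (HNLD, 7d) had 52713, and the other 60 cortices lay at 106149 to 169636. In FP85 and FP96 red blood cell miRNAs summed to 73332 and 86410 (up to 11650 in those 60), leukocyte miRNAs to 17915 and 21239 (up to 7353) and epithelial miRNAs to 13761 and 11612 (up to 8126). Both libraries are named below as labelled, against their neuronal sums. In mouse FP38 (HNLD, 6h) the heart had 4207 for heart-muscle miRNAs (53624 to 160212 in the other hearts) and the lungs had 158682 (1997 to 13395 in lungs that do not stand apart). Epithelial and multiciliated cell miRNAs were exchanged in the same way, at 9189 and 7916 in its heart (up to 689 and 613 in hearts that do not stand apart) and 987 and 608 in its lungs (at least 6021 and 5730). The marker sums of FP38 thus go against both tissue labels, the labels may be exchanged, and its libraries are named below as labelled. In all, 3 cortical, 2 cardiac and 10 pulmonary libraries stand apart from their tissue by profile, among them every lung of the last set, and results are given with and without them.

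miR-26a-5p was among the most abundant miRNAs of every tissue. Its lowest, median and highest values were 29342, 55129 and 116537 in cortex, 23807, 34889 and 65699 in heart and 34182, 58652 and 74548 in lungs. The means were 54049 ± 15204 (SD, n = 63), 34799 ± 5582 (n = 64) and 59066 ± 7382 (n = 63), which made it the miRNA of rank 5, 9 and 6 by mean level. It held 5.49%, 3.58% and 5.83% of all reads of the tissue, pooled over its libraries. The ranges of the 3 tissues overlap, and levels are compared across tables that were scaled separately.

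The other guide, miR-26b-5p, was at 1843 ± 1189 in cortex (897 to 8344), 3898 ± 487 in heart (2872 to 5272) and 5949 ± 1331 in lungs (3775 to 9556). Without libraries that stand apart the cortical value was 1633 ± 272 (897 to 2334, n = 60), so that every cortex lay below every heart and lung. For each 100 of miR-26a-5p there were 3.47 ± 1.34 of miR-26b-5p in cortex, 11.3 ± 1.34 in heart and 10.1 ± 1.99 in lungs. This ratio is taken within a library and does not depend on the scaling. Of the cortices only FP85 (8.44) and FP96 (7.16) reached the range of the lungs, and only FP85 that of the heart. The lowest heart value (7.98) was that of FP38, whose marker sums go against its label. The next lowest heart had 8.82 (FP83, sham, 7d), above every cortex.

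The passenger strands were far less abundant. miR-26b-3p had 33.6 ± 20.6 in cortex (15.7 to 148), 34.9 ± 11.6 in heart (6.73 to 68.7) and 64.1 ± 19.1 in lungs (20.5 to 135). miR-26a-2-3p had 8.72 ± 2.36, 4.73 ± 1.66 and 8.03 ± 2.49, resting on as few as 12, 1 and 1 reads and at most 73, 24 and 65 in a library. At such counts its value in a shallow library carries a wide counting error. A value of at least 10, reached in at least 4 libraries, was asked for testing, which kept 482, 320 and 371 miRNAs, and miR-26a-2-3p passed in cortex and lungs (13 libraries each) but not in heart (0 libraries). In lungs its highest sham value was 6.10 at 0h, 9.61 at 6h, 8.04 at 24h and 10.4 at 7d. It thus passed there mostly through fentanyl libraries.

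**Figure D1:**
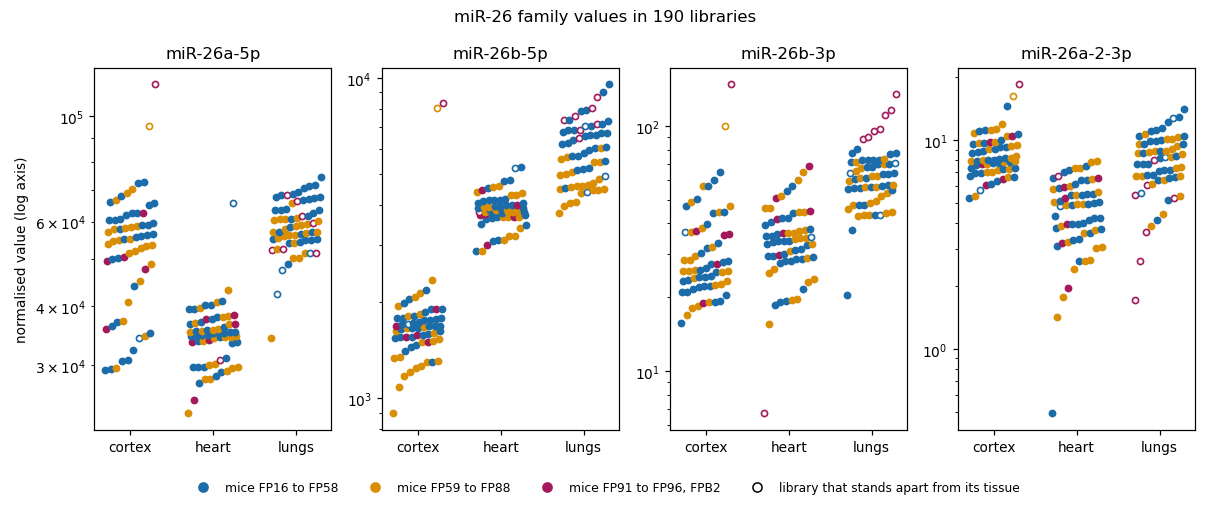
Normalised value of the 4 members in each library of cortex, heart and lungs on a log axis, with point colours for mouse number sets and open points for libraries that stand apart. The guide miR-26a-5p lies highest in every tissue, with a mean of 54049 in cortex, 34799 in heart and 59066 in lungs, and miR-26a-2-3p lies lowest.

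Steadiness was described by the SD within groups on the log2(value + 1) scale. For miR-26a-5p it was 0.165 in lungs, the lowest but 2 of 371 miRNAs (median 0.440), 0.225 in heart (rank 21 of 320 from the lowest, median 0.420) and 0.353 in cortex (rank 103 of 482, median 0.570). miR-26b-5p had 0.244 in lungs (rank 32), 0.197 in heart (rank 10) and 0.487 in cortex (rank 194). Without libraries that stand apart the ranks of miR-26a-5p became 13 in lungs, 11 in heart and 178 in cortex. Those of miR-26b-5p became 56 in lungs, 15 in heart and 123 in cortex. Among miRNAs with a mean of at least 1000, and without those libraries, miR-26a-5p ranked 7 of 71 in lungs and 6 of 60 in heart but 60 of 91 in cortex, where its SD of 0.288 was above their median of 0.254. The passenger miR-26b-3p varied more than its guide in all 3 tissues, with 0.614 in cortex, 0.507 in heart and 0.360 in lungs. The passenger miR-26a-2-3p had 0.427 in lungs, above its guide, but 0.314 in cortex, below it, and 0.252 against 0.288 there without libraries that stand apart.

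miRNAs whose log2 values followed the guides most closely were found by Pearson r over the libraries of a tissue, which share depth and scaling, so r is a description. For miR-26a-5p they were miR-151-5p (0.84), miR-365-3p (0.81) and miR-106b-5p (0.80) over 63 cortices, miR-151-5p (0.80), miR-32-5p (0.75) and miR-195a-5p (0.75) over 64 hearts, and miR-16-5p (0.66), miR-151-5p (0.56) and miR-340-3p (0.54) over 63 lungs. miR-151-5p was the only one of these named in all 3 tissues. Without libraries that stand apart it stayed among the nearest 3 in heart only. Its r was then 0.92 in cortex, 0.81 in heart and 0.64 in lungs. For miR-26b-5p the nearest were miR-126a-5p (0.94), miR-93-5p (0.91) and miR-203-3p (0.91) in cortex, which were 0.74, 0.71 and 0.65 without libraries that stand apart. In heart they were miR-23b-3p (0.63), miR-30b-5p (0.63) and miR-195a-5p (0.61), and in lungs miR-194-5p (0.71), miR-140-5p (0.67) and miR-455-3p (0.67). Between the guides themselves r was 0.41 in cortex, 0.64 in heart and 0.50 in lungs, and without libraries that stand apart 0.05, 0.60 and 0.63.

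Dose and time were tested with limma on log2(value + 1) with the 16 group means of each table. A call means an adjusted p (Benjamini-Hochberg, over all miRNAs tested in the tissue) under 0.05. Fold changes are on that log2 scale and understate the change of low values, which concerns the passenger strands most. In bulk tissue, fewer cells of a type and less RNA per cell cannot be told apart.

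Cortex: No member was called for dose, time or their interaction, for fentanyl against sham at any time or over all times, or in any of the 12 dose and time conditions. By limma 2 member results of the 3 terms, 5 of fentanyl against sham and 6 of the conditions were under an unadjusted p of 0.05. Of all 482 miRNAs 37, 44 and 23 were under it for dose, time and interaction. For fentanyl against sham 207, 195, 7, 17 and 196 were, in the order 0h, 6h, 24h, 7d and all times. edgeR called 1, 6 and 7 member results and DESeq2 1, 9 and 8 in these families. Of all 482 miRNAs edgeR called 66 for dose and 110 for fentanyl against sham over all times. The share of all miRNAs called by DESeq2, and by edgeR in the other comparisons, is not given here. The edgeR and DESeq2 counts are thus no result about the members. Among all 482 miRNAs limma called 1.04% for dose, 0% for time and 0% for the interaction. For fentanyl against sham it called 0% at 0h, 6h and 24h, 2.49% at 7d and 1.66% over all times, and over the conditions 0.242% of miRNA and condition pairs.

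At 0h the sham cortices had 68873, 70202, 50605 and 116537 of miR-26a-5p (FP87, FP88, FP95 and FP96), and the 12 fentanyl cortices ran from 32262 to 66061. Of the sham mice 3 lay above every fentanyl mouse, and FP95 lay inside their range. The difference was −0.53 (SE 0.20, limma adjusted p = 0.0857), and −0.31 (adjusted p = 0.984) without libraries that stand apart, of which FP96 is one. miR-26b-5p had 1805, 2065, 1499 and 8344 in the same sham mice and 897 to 1834 after fentanyl, so FP96 alone was far outside. Its difference of −0.74 (SE 0.28, adjusted p = 0.0857) was −0.18 (adjusted p = 0.984) without such libraries. Leaving out 1 library could bring a call here: without FP85, FP87, FP88 or FP95 limma called both guides at 0h, with adjusted p of 0.0113 to 0.0482. Without FP85 miR-26a-5p was also called in LD10 at 0h (adjusted p = 0.0263), and without FP95 miR-26b-5p and miR-26a-2-3p over all times (adjusted p = 0.0494 each). The share of all miRNAs called in these fits is not given here. In the full fit, limma had 207 of 482 miRNAs under an unadjusted p of 0.05 at 0h. It had 145 in LD10 at 0h and 196 over all times. These calls are thus no result about the members.

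At 6h miR-26b-5p stood at 1240, 1493, 8040 and 1658 in sham cortex, the high value being FP85, and at 1171 to 1988 after fentanyl. The difference was −0.52 (SE 0.28, adjusted p = 0.146) and turned to 0.10 without libraries that stand apart, while without FP77 it was called (adjusted p = 0.0403). edgeR called it on the recovered reads at −1.25 (adjusted p = 0.00218), and DESeq2 at −1.50 (adjusted p = 0.000454), with FP85 in the data. The share of all miRNAs called in these fits is not given here. In the full fit 195 of 482 miRNAs were under an unadjusted limma p of 0.05 at 6h. The part of the neuronal, red blood cell, leukocyte or epithelial sums of FP85 and FP96 in these differences was not tested.

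In the same hours the 4 HNLD cortices of 6h had 30680, 37019, 30802 and 29342 of miR-26a-5p, the group with the lowest mean of that time. The sham cortices of 6h had 54719, 37234, 95230 and 29597, so the groups overlap. The difference of −0.62 (SE 0.25) had an adjusted p of 0.129, and limma called it without FP86 (adjusted p = 0.0194) or FP96 (adjusted p = 0.0462). In the full fit 152 of 482 miRNAs were under an unadjusted limma p of 0.05 in HNLD at 6h. Without libraries that stand apart, miR-26a-5p was called for time in cortex (limma adjusted p = 0.0370, against 0.538 with them). The share of all miRNAs called in these reduced fits is not given here.

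**Figure D2:**
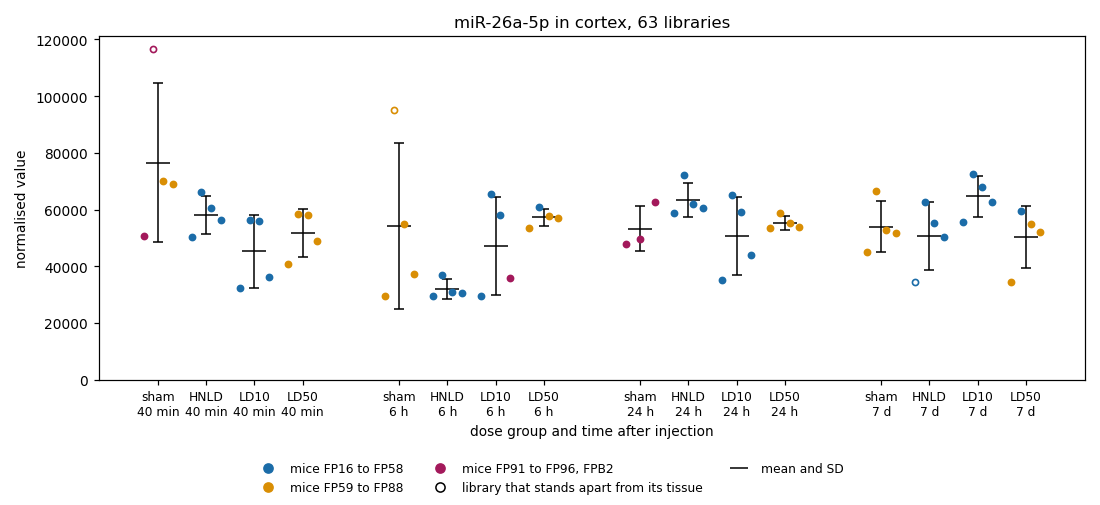
Normalised miR-26a-5p value of each cortical library by dose and time, with black bars for mean and SD, point colours for mouse number sets and open points for libraries that stand apart. FP96 in sham 0h (116537) and FP85 in sham 6h (95230) lie highest, and the 4 HNLD cortices of 6h lie between 29342 and 37019.

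Heart: None of the 3 members tested was called in any comparison, by limma, edgeR or DESeq2, and 0 were under an unadjusted p of 0.05 by limma. Limma called 0% of the 320 miRNAs for dose, time, interaction and fentanyl against sham, and 0.599% of miRNA and condition pairs. miR-26b-5p is an example, with 3800, 3915, 3670 and 3733 in sham hearts of 0h and 2876 to 4787 in the fentanyl hearts of that time. The sham values lie inside the fentanyl range. Over all times the difference was 0.03 (SE 0.07) for miR-26a-5p, −0.01 (SE 0.06) for miR-26b-5p and 0.01 (SE 0.14) for miR-26b-3p, each with an adjusted p of 0.986. The highest miR-26a-5p in a library labelled heart, 65699, was that of FP38, whose marker sums go against the label, and without libraries that stand apart its cardiac mean was 34365 ± 4010.

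Lungs: Members were called here, in a tissue where limma called 34.5% of the 371 miRNAs for dose, 1.35% for time and 9.43% for the interaction. It called 13.7% for fentanyl against sham at 0h, 0% at 6h, 46.1% at 24h, 0% at 7d and 33.7% over all times, and 10.7% of miRNA and condition pairs. At 24h 3 of the 4 members were called beside that 46.1%, a count too small to set the family apart from other miRNAs. Of the terms, dose called miR-26b-5p (adjusted p = 0.000129) and miR-26a-5p (adjusted p = 0.0432). Each of 24 libraries ended the call of miR-26a-5p when left out, with adjusted p up to 0.0857.

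miR-26b-5p was lowest in LD50 lungs and highest in LD10 lungs. The lowest, median and highest values were 3989, 5523 and 8679 in sham, 4403, 6139 and 9556 in HNLD, 5168, 6812 and 9016 in LD10 and 3775, 4587 and 6631 in LD50. The ranges overlap, and the means were 5840 ± 1468 (n = 16), 6265 ± 1206 (n = 16), 6833 ± 993 (n = 16) and 4785 ± 674 (n = 15). The same values sorted by mouse number set, with 6460 ± 1144 in the first (n = 33), 4756 ± 582 in the middle (n = 23) and 7461 ± 733 in the last (n = 7). All 7 lungs of the last set lay above the highest of the middle set (6053), as did 21 of 33 of the first. Within the sham group the middle set had 4880 ± 707 (n = 10) and the last set 7441 ± 801 (n = 6), with no overlap.

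Dose and set are nearly the same division of these mice, and within sets no member was called. LD50 minus sham in the middle set was −0.10 (SE 0.09, adjusted p = 0.704) for miR-26b-5p, with 1.35% of miRNAs called. LD10 minus HNLD in the first set was 0.13 (SE 0.09, adjusted p = 0.731), with 0% called. With the set as a term the dose call of miR-26b-5p ended (adjusted p = 0.660), and without the last set it stayed (adjusted p = 0.000198). Of the 2 LD50 mice with first-set numbers, FP29 had 4540, inside the range of the middle set, and FP43 had 6631, above it. Dose and mouse set cannot be told apart for most of these values.

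**Figure D3:**
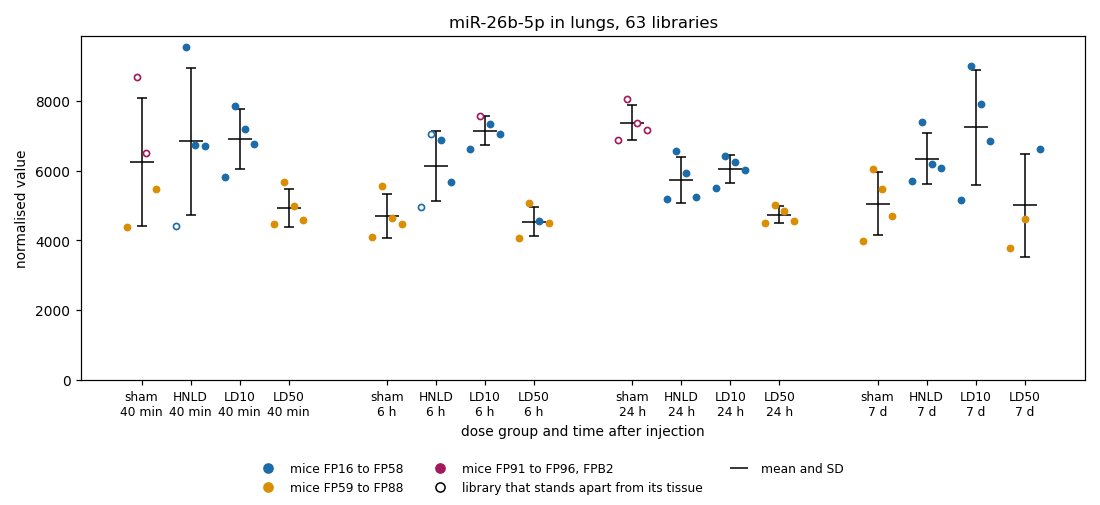
Normalised miR-26b-5p value of each lung library by dose and time, with black bars for mean and SD, point colours for mouse number sets and open points for libraries that stand apart. Lungs of the last set lie at 6496 to 8679 and those of the middle set at 3775 to 6053, also within sham.

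At 24h the 4 sham lungs all belong to the last set, FP91 to FP94. They had 6887, 7162, 7358 and 8067 of miR-26b-5p, against 5190 to 6575 in HNLD, 5513 to 6405 in LD10 and 4490 to 5015 in LD50. The sham lungs lay above all 12 fentanyl lungs, and the difference of −0.43 (SE 0.14) was called (adjusted p = 0.0121), but not without FP94 (adjusted p = 0.0522). LD50 alone gave −0.64 (SE 0.18, adjusted p = 0.00475), in a condition with 36.9% of miRNAs called. At 6h and 7d, where sham lungs are of the middle set, the same difference was 0.32 and 0.27 and was not called (adjusted p = 0.497 and 0.794). Without libraries that stand apart, the mean over 0h, 6h and 7d was 0.32 and was called (adjusted p = 0.00669). The share of all miRNAs called in that fit is not given here, and in the full fit it was 33.7% over all times. All sham lungs left are then of the middle set and all HNLD and LD10 lungs of the first. Dose and mouse set cannot be told apart there either.

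The passenger strand miR-26b-3p had 96.6, 90.3, 88.5 and 110 in the sham lungs of 24h. The fentanyl lungs of that time had 56.4 to 77.3 in HNLD, 37.7 to 72.3 in LD10 and 53.0 to 65.3 in LD50, all below the sham lungs. The difference was −0.68 (SE 0.21, adjusted p = 0.00621), with LD10 at −0.82 (adjusted p = 0.0105, 31.5% of miRNAs called) and LD50 at −0.71 (adjusted p = 0.0278). The LD10 call ended without FP51 (adjusted p = 0.0720), and the LD50 call without FP62, FP64, FP91 or FP94 (up to 0.0707). Over all times the fall of 0.27 (SE 0.10, adjusted p = 0.0400) was not called when FP59, FP60, FP83, FP84, FP85, FP86, FP91, FP94, FP95 or FP96 was left out (adjusted p up to 0.111), and the difference was 0.0067 without the last set. The last set had 88.5 to 135 of miR-26b-3p, above every lung of the first set (up to 80.1) and the middle set (up to 73.1). With the set as a term the 24h difference was 0.16, so its sign turned. No set holds both sham and fentanyl lungs at 24h, so that value rests on set differences at other times.

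**Figure D4:**
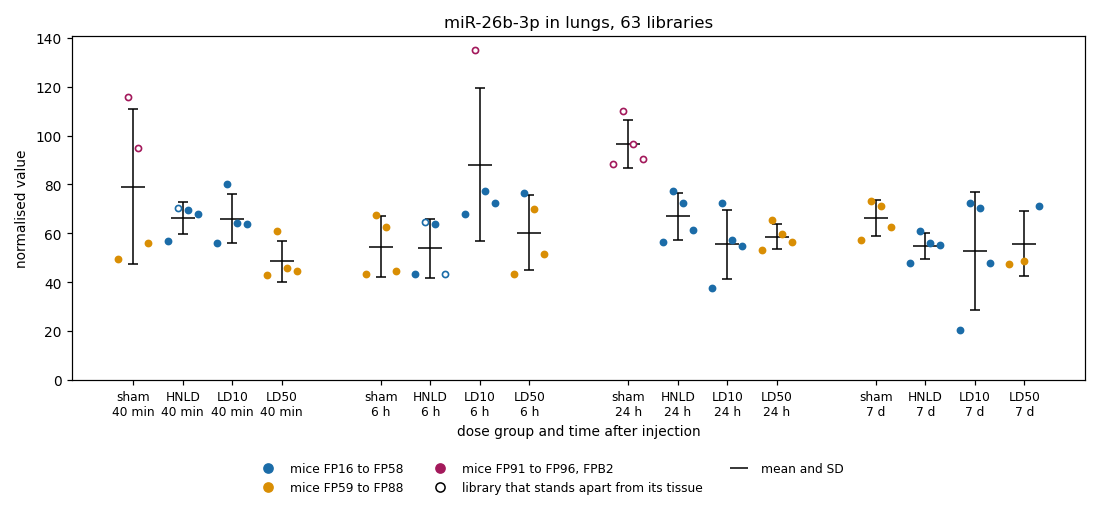
Normalised miR-26b-3p value of each lung library by dose and time, with black bars for mean and SD, point colours for mouse number sets and open points for libraries that stand apart. All 7 lungs of the last set, which include the 4 sham lungs of 24h, lie at 88.5 or more.

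miR-26a-2-3p differed in the other direction. At 0h the sham lungs had 3.87, 4.41, 2.64 and 6.10 (FP87, FP88, FP95 and FP96), and the 12 fentanyl lungs had 6.45 to 12.9, so the groups did not overlap. The difference was 0.89 (SE 0.25, adjusted p = 0.0133), with HNLD at 1.08 (adjusted p = 0.0248, 8.63% of miRNAs called). These values rest on 12, 16, 2 and 3 reads in the sham lungs and on 2 to 60 after fentanyl. Without FP95 the call at 0h ended (adjusted p = 0.208), and that of HNLD ended without FP47, FP95 or FP96 (up to 0.212). The sham lungs of 0h are 2 mice of the middle and 2 of the last set, while those of HNLD and LD10 are of the first. With the set as a term the 0h difference was 0.24 (SE 0.31, adjusted p = 0.897) and that of HNLD 0.28 (adjusted p = 0.818). At 0h it was 0.89 without the last set (adjusted p = 0.143) and 0.91 without libraries that stand apart (adjusted p = 0.0298). At 24h the difference was 0.61 (SE 0.25, adjusted p = 0.0442) on 3 to 6 sham reads. It was −0.41 with the set as a term, a value that again rests on set differences at other times. Leaving out FP23, FP39, FP56, FP57, FP62, FP66, FP91, FP92 or FP94 ended the 24h call (adjusted p up to 0.193). At 6h and 7d the difference was −0.11 and −0.17, neither called.

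The 10 miRNAs listed as expressed in most tissues, among them miR-16-5p, miR-191-5p and let-7a-5p, were counted in the same fits. None was called in cortex or heart. In lungs 4 were called for dose, and for fentanyl against sham 5 were higher and 1 lower at 24h, with a median of 0.31 against 0.20 over all miRNAs. RLE scaling moved that median of all miRNAs at 24h from 0.20 to 0.05, and in cortex at 6h from 0.23 to 0.12. With that scaling the 24h differences in lungs were −0.59 for miR-26b-5p (adjusted p = 0.00129), −0.84 for miR-26b-3p (adjusted p = 0.00148) and 0.47 for miR-26a-2-3p, whose call ended (adjusted p = 0.122). Their directions stayed.

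The passenger strand was then set against its guide in the same library. Ratios per 1000 do not depend on scaling, but the tested log2 ratio adds 1 to each scaled value and so depends on the library factor where the passenger is low. For each 1000 reads of miR-26b-5p there were 19.1 ± 8.33 of miR-26b-3p in cortex (10.7 to 49.5), 9.13 ± 3.41 in heart (1.76 to 22.6) and 11.0 ± 2.83 in lungs (2.27 to 17.8). For each 1000 of miR-26a-5p there were 0.172 ± 0.0641, 0.138 ± 0.0519 and 0.138 ± 0.0475 of miR-26a-2-3p. The passenger share of miR-26a is an understatement for Mir26a-2, since Mir26a-1 adds to the guide. Among hairpins with both arms measured and a major arm of at least 1000, the pooled minor arm of miR-26b ranked 50 of 74 from the lowest in cortex, 26 of 42 in heart and 36 of 55 in lungs. miR-26a-1-3p gave 0.0348, 0.00793 and 0.0392 per 1000 of the shared guide, less than miR-26a-2-3p in each tissue.

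By time, the ratio of fentanyl and sham mice was compared in an exact permutation test for 2 arm pairs, 3 tissues and 4 times, 24 tests in all. Only miR-26a-2-3p to miR-26a-5p in lungs at 0h passed, where the 12 fentanyl lungs had 0.0970 to 0.220 per 1000 and the sham lungs 0.0768, 0.0753, 0.0443 and 0.0920, with no overlap. The difference was 0.85 on the log2 scale (two-sided exact p = 0.000549, the smallest that 12 against 4 can give, adjusted p = 0.0132). With 0.25 or 4 added in place of 1 it was 0.97 or 0.58, at the same exact p. The guide itself differed by 0.04 at 0h (limma adjusted p = 0.835). The exact Clopper-Pearson 95% interval of FP95 (2 reads) ran from 0.00536 to 0.160 and that of FP88 (16 reads) from 0.0430 to 0.122, and both reach into the fentanyl range. These intervals cover counting error only. Without the last set 2 sham lungs remain, and the difference was 0.74. The exact p was then 0.0110 (adjusted p = 0.198), the smallest that 12 against 2 can give. The exact test does not take the mouse sets into account. In the middle set LD50 minus sham was 0.13 as a mean over 0h, 6h and 7d (permutation p = 0.399, adjusted p = 0.719). That mean includes 2 times at which no difference was called. At 0h the 4 LD50 lungs, all of the middle set, had 0.117 to 0.176 per 1000, above FP87 and FP88 of that set. That comparison at 0h alone was not tested. Leaving out FP87, FP88, FP95 or FP96 also ended the call, since 12 against 3 cannot pass the adjusted threshold. The sham lungs of 6h (0.111 to 0.167) and 7d (0.107 to 0.170) lay above those of 0h. At 24h the difference was 0.60 (exact p = 0.0159, adjusted p = 0.191).

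By dose, the ratio was tested with 100000 permutations of the doses within a time, for 6 tests. miR-26b-3p to miR-26b-5p in lungs passed (19.6% of the variance within times, permutation p = 0.00312, adjusted p = 0.0187). Its mean per 1000 was 12.6 ± 1.90 in sham (n = 16), 9.91 ± 2.41 in HNLD (n = 16), 9.76 ± 3.40 in LD10 (n = 16) and 11.8 ± 2.52 in LD50 (n = 15). HNLD and LD10 lay lowest, and these are nearly all mice of the first set, whose mean was 9.83 against 11.8 in the middle and 14.0 in the last set. With doses permuted within time and set the p was 0.173 (adjusted p = 0.367). Within sets, LD50 minus sham was −0.09 (permutation p = 0.480, adjusted p = 0.719) and LD10 minus HNLD −0.14 (permutation p = 0.436, adjusted p = 0.719). For miR-26a-2-3p to miR-26a-5p in lungs the dose test gave a permutation p of 0.0479 (adjusted p = 0.144), and the 4 tests of cortex and heart had adjusted p of 0.717 or more.

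**Figure D5:**
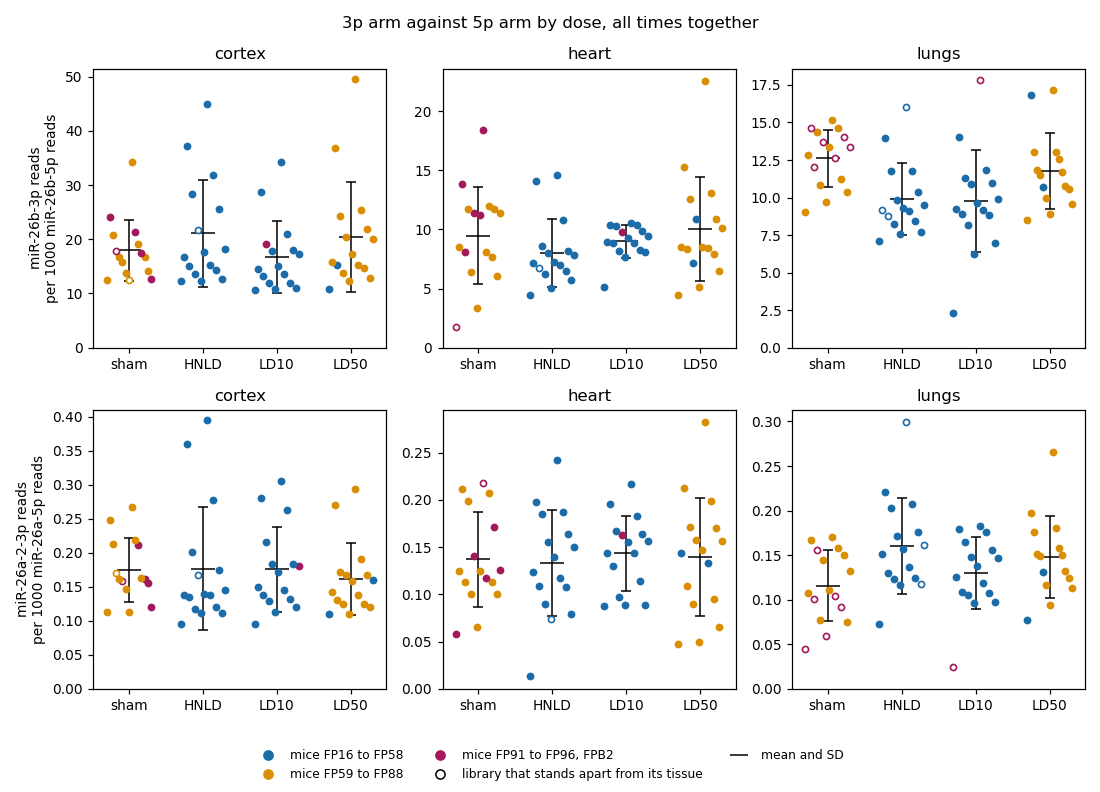
Passenger reads per 1000 guide reads in each library by dose, for both arm pairs in cortex, heart and lungs, with black bars for mean and SD, point colours for mouse number sets and open points for libraries that stand apart. In lungs the pair of miR-26b has means of 12.6 in sham, 9.91 in HNLD, 9.76 in LD10 and 11.8 in LD50.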

How the data were processed

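Small RNA libraries from cortex (63), heart (64) and lungs (63) were grouped by dose and time from the labels. The heart column of sham mouse FP91 carries the name of LD10, and its group was taken from the label. All columns were used (0 were left out). By the paper, reads were mapped to mature miRBase miRNAs and scaled by TMM in edgeR. It names Bowtie 1.0.0 beside a mapping to the mouse genome that served as a check. The authors deposited a normalised signal per miRNA. All low values (100%) were whole multiples of 1 read within 0.1 read, so reads were recovered. A value of 1 read was worth up to 0.479 in cortex, 3.96 in heart and 4.15 in lungs.

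Since the values are no counts, limma (3.58.1, R 4.3.3, mean trend) on log2(value + 1) was the main test, with 16 group means per tissue, a filter that kept miRNAs reaching 10 in 4 or more libraries, and Benjamini-Hochberg adjustment with a threshold of 0.05. It was checked on simulated data. Arm ratios, log2((3p + 1)/(5p + 1)), were tested by exact or 100000-fold permutation with Python 3.11.15. Alternatives were edgeR 4.0.16 and DESeq2 1.42.0 on recovered reads, RLE scaling, other pseudocounts, no filter, a mouse set term and omission of each library, of the last set, of libraries that stand apart and of libraries of low depth. For dose, edgeR called 66 miRNAs in cortex, 2 in heart and 166 in lungs, against 5, 0 and 128 by limma. The 2 tests of the arm ratio by dose with mouse sets were chosen after seeing the data. A library stands apart when hierarchical clustering on a distance of 1 minus Pearson r, read at 0.05, puts it outside the main cluster, and has low depth under 0.25 of the tissue median. Replicates are separate mice, and the closest pair of a group differed by more than sampling noise (chi-square per degree of freedom of at least 17.6, 26.7 and 10.4). No molecular identifiers are named in the sources used here, so counting intervals cover counting error only.

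The named miRNAs are the 4 members, those sharing a seed, the 3 miRNAs nearest to each guide by Pearson r in each tissue, and 10 ubiquitous miRNAs. The members and lists were chosen with earlier results of these data known.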

Additional observations from a re-analysis of the deposited data

Results flagged for a closer look

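In groups of 4, a library was taken as far from the others when its gap to the nearest one exceeded Dixon's 95% critical share of the group's range. This held for 23 of 184 sets of values (12.5%), where chance gives about 5%. No explanation was tested.

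Cortex: Sham FP96 at 0h had miR-26b-5p at 8344, miR-26b-3p at 148 and miR-26a-2-3p at 18.5, each above its group. Sham FP85 at 6h had miR-26b-5p at 8040 and miR-26a-2-3p at 16.2, also above. These 2 cortices have the low neuronal sums given above. miR-26b-3p was high in FP25 (HNLD, 0h) at 44.7 and in FP74 (LD50, 0h) at 44.4. miR-26a-2-3p was low in FP83 (sham, 7d) at 8.35.

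Heart: miR-26a-5p was high in FP38 (HNLD, 6h) at 65699, the library labelled heart with a low heart-muscle sum. It was low in FP19 (LD10, 24h) at 29767 and in FP68 (LD50, 6h) at 28083. miR-26b-5p was low in FP55 (LD10, 0h) at 3113 and FP69 (LD50, 0h) at 2876, and high in FP42 (LD10, 6h) at 5272 and FP82 (sham, 7d) at 4553. miR-26a-2-3p was high in FP64 (LD50, 24h) at 6.50 and FP68 (LD50, 6h) at 7.92.

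Lungs: miR-26b-3p was high in FPB2 (LD10, 6h) at 135, the 1 LD10 lung of the last set, and in FP74 (LD50, 0h) at 61.0, the mouse whose cortex was also high. miR-26a-5p was low in FP22 (LD10, 6h) at 63383 and high in FP29 (LD50, 6h) at 67156 and FP94 (sham, 24h) at 61595. miR-26a-2-3p was high in FP27 (LD10, 7d) at 11.1.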

How the results depend on the processing

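Counts of member results called by limma changed as follows. The share of all miRNAs called is not given for most alternatives, so the counts are no result about the family. In lungs 171, 66 and 79 of 371 miRNAs were under an unadjusted p of 0.05 for dose, time and interaction. In a lung condition the number ran from 1 (LD50, 7d) to 174 (LD50, 24h). In cortex the 0 for dose, time and interaction became 2 at an unadjusted p, 1 without libraries that stand apart, 1 with edgeR and 1 with DESeq2. The 0 for fentanyl against sham became 5 unadjusted, 6 with edgeR, 9 with DESeq2 and 0 to 4 without 1 library (4 without FP95). The 0 for the conditions became 6, 7 and 8 in the same order and 0 to 1 without 1 library. In heart 0 stayed 0 under every alternative run. In lungs the 2 calls of the terms became 4 unadjusted, 1 without the filter, 1 without the last set, 1 without libraries that stand apart, 0 with the set term, 4 with edgeR, 5 with DESeq2, 1 without low depth and 1 to 2 without 1 library. The 5 calls of fentanyl against sham in lungs became 3 without the filter, 1 without the last set, 2 without libraries that stand apart, 0 with the set term, 2 without low depth and 2 (without FP94) to 6 without 1 library. The 4 calls of the lung conditions became 15 unadjusted, 7 with RLE, 2 without the filter, 0 without the last set, 1 without libraries that stand apart, 0 with the set term, 8 with edgeR, 9 with DESeq2, 0 without low depth and 3 to 8 (without FPB2) without 1 library. LD10 against HNLD in the first set had 1 unadjusted, beside 29 of all 371 miRNAs. The 1 lung call of the arm ratio by time became 0 without the last set, libraries that stand apart or low depth, and 0 to 2 (without FP93) without 1 library. In those first 3 settings 2 sham lungs of 0h remained. The exact p at 0h (0.0110, 0.0128 and 0.0128) was each time the smallest that so few can give. The 1 lung call by dose became 0 within time and set and 0 within sets. Signs turned with the set term for miR-26b-3p in LD50 at 24h (0.42) and at 24h (0.16) and for miR-26a-2-3p at 24h (−0.41), and for miR-26b-3p over all times without the last set (0.0067) or libraries that stand apart (0.0027). Without the last set or those libraries no sham lung of 24h is left, so 24h could not be fitted. Means over all times then cover 0h, 6h and 7d only. The 24h lung values with the set term rest on set differences at other times, since no set holds sham and fentanyl lungs at 24h. Apart from fewer samples or genes, the cause was not tested. Of 214 summary values 169 stayed within 1.5 times, and of 114 values of single members 77 stayed and 32 lost the call. No paired analysis was possible because the groups compared within a tissue share no mouse and the labels carry no replicate numbers. Low read numbers limit miR-26a-2-3p, and reads of the 2 guides, which differ at 2 positions, may be assigned to each other where mismatches were allowed, which was not tested.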
